A study of Mus musculus with 31 samples.

Results

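The fibrillar collagen genes are described here by the open chromatin found in and around them in the parental NIH-3T3 line, which derives from mouse embryonic fibroblasts. The 10 genes Col1a1, Col1a2, Col2a1, Col3a1, Col5a1, Col5a2, Col5a3, Col11a1, Col11a2 and Col27a1 were taken by name from 21829 protein-coding genes of the GENCODE annotation of mm10. The rule uses no measured value, but the family was picked with earlier results of these data known. ATAC-seq, in which the transposase Tn5 cuts and tags DNA that nucleosomes leave exposed, was performed on 1 library from 50000 cells that carried no transgene, and the labels list no doxycycline for it. The methods describe a 48 h exposure to doxycycline (500 ng/ml) without exempting the parental line, so whether this library received it cannot be told. Another 30 libraries, from lines that overexpress 1 of 13 TFs or carry rtTA3G without a TF, were not analysed here. With 1 library there is no replicate error, so the values below describe this library and no test was made.

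Fibrillar collagens are long rod-shaped proteins that assemble into the banded fibrils which give skin, bone, tendon and cartilage their tensile strength. Type I collagen, built from the products of Col1a1 and Col1a2, is the main fibril of most connective tissue and is made by fibroblasts and osteoblasts, often together with type III (Col3a1). Type V chains (Col5a1, Col5a2, Col5a3) are minor components that start and limit fibril growth, type II (Col2a1) and type XI (Col11a1, Col11a2) form the fibrils of cartilage, and type XXVII (Col27a1) is found in developing cartilage. Accessible chromatin at a gene's transcription start site (TSS), in its introns or around it marks DNA that regulators can reach, but it does not measure transcription.

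Of the 10 genes, 8 had a peak within 1 kb of one of their own TSSs, and Col2a1 and Col11a2 had none. Of the other protein-coding genes 53.7% had such a peak. The 10 genes with 50 kb to either side held 112 of the 63456 peaks in the list. Of these, 2 lay between or within the neighbouring genes Col3a1 and Col5a2 and were counted for both, which gives 114 peak assignments. They comprise 13 peaks within 1 kb of a TSS of the gene itself (promoter peaks below), 34 peaks elsewhere in the gene body and 67 in the flanks. For each peak the authors' peak caller gives a fold enrichment, a −log10 p and a −log10 q. The fold is the fragment pileup at the summit over the pileup expected locally, with 1 added to both. The number of fragments at the summit was recovered from the fold and the −log10 p as a counting depth. Its median over all 63456 peaks was 29 fragments, and its lowest value was 10. The total read number cannot be taken from a list of peaks.

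**Figure D1:**
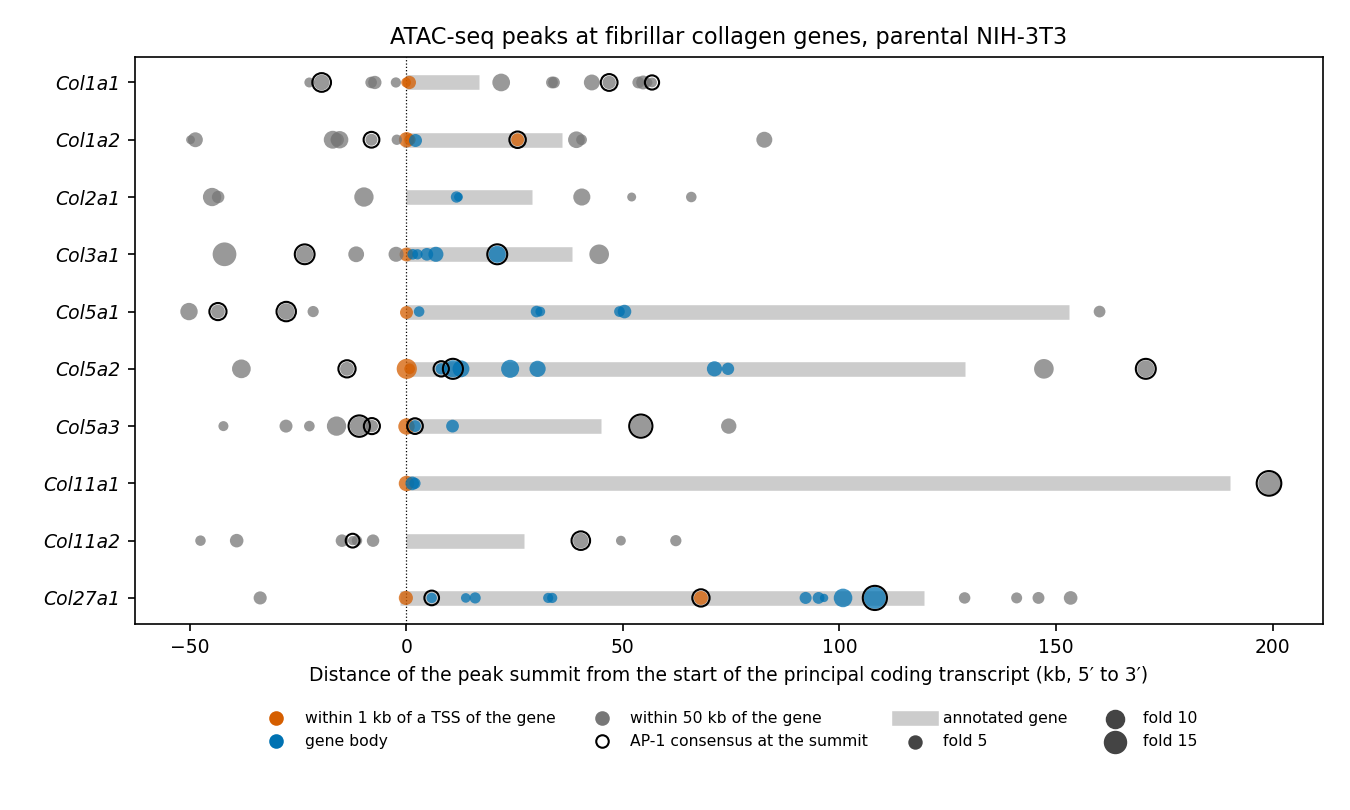
Peaks at the 10 fibrillar collagen genes, placed by the distance (kb) of their summit from the start of the principal coding transcript, in the direction of transcription. Dot area grows with fold enrichment, colour gives the position class, rings mark the AP-1 consensus at the summit and grey bars are the annotated genes. Col2a1 and Col11a2 have no promoter peak, and Col11a1 has only 4 peaks over its 190.2 kb and flanks.

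The identity of the cells was checked with marker genes. A promoter peak was present at 9 of 10 fibroblast genes, Lum being the exception, and at 2 of 9 cartilage genes (Sox6 and Sox9, but not Acan, Matn1, Matn3, Comp, Hapln1, Snorc or Sox5). Of all protein-coding genes outside the collagen family described here, 53.7% had one. Of the markers of other cell types, 0 of 3 blood genes, 1 of 5 epithelial genes (Krt8) and 2 of 3 endothelial genes (Pecam1 and Cdh5) had one. The folds ran from 3.41 (Thy1, 12 fragments) to 10.5 (Fn1) at the fibroblast genes. They were 7.24 at Sox6, 8.13 at Sox9, 3.25 at Krt8, 8.40 at Pecam1 and 12.8 at Cdh5 (114 fragments). The part of other cell types in the results below was not tested.

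The DNA just before the start of the principal coding transcript differed widely between the genes. The 120 bases before the start are shown for the chains of types I and III, for Col5a2 with the highest promoter peak and for Col2a1 without one. They were read from the mm10 reference in the direction of transcription, and capitals mark CCAAT or the GC box, searched on either strand.
Col1a1, chr11:94936104-94936223, forward strand: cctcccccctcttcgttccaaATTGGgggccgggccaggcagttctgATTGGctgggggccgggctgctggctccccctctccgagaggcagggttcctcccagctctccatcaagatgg
Col1a2, chr6:4505373-4505492, forward strand: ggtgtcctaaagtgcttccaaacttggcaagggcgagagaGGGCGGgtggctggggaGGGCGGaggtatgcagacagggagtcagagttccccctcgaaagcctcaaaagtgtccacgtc
Col3a1, chr1:45311418-45311537, forward strand: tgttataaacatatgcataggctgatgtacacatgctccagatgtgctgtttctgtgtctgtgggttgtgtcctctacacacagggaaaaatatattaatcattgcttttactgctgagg
Col5a2, chr1:45503283-45503402, reverse strand: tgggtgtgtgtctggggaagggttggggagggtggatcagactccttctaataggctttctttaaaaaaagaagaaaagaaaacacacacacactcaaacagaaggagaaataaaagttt
Col2a1, chr15:98004696-98004815, reverse strand: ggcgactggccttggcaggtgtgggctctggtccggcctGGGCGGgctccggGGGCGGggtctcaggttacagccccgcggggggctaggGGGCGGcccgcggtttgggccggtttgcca
Counted back from the start, the Col1a1 sequence held CCAAT on the reverse strand at positions -99 and -73. Col1a2 held the GC box, GGGCGG, at -80 and -63. The Col2a1 sequence had 3 copies of GGGCGG, at -81, -68 and -30, although the gene had no promoter peak. Neither Col3a1 nor Col5a2 held one of these sequences in the bases shown. In the 150 bases before the start, GGGCGG occurred at 7 of the 10 genes and at 37.0% of other protein-coding genes, and CCAAT at 3 of the 10 and at 26.8%. The sequence TGACTCA, on either strand, occurred at 0 of the 10 (2.35% of other genes), and TATAAA between -45 and -15 on the coding strand also at 0 (2.68%).

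CpG content divided the promoters. The ratio of observed to expected CpG within 500 bp of the start was lowest for Col3a1 (0.178), followed by Col1a1 (0.300), Col5a2 (0.331), Col1a2 (0.356), Col11a2 (0.373), Col5a3 (0.417) and Col11a1 (0.459). It was higher for Col2a1 (0.602), Col27a1 (0.746) and Col5a1 (0.821), and its median over other protein-coding genes was 0.567. Of the 7 genes with a ratio under 0.5, a split chosen after the values were seen, 6 had a promoter peak, whereas 22.1% of the 9889 other protein-coding genes with such a ratio had one. Of the 3 genes with a higher ratio, 2 had a promoter peak, against 79.9% of the 11930 others. Of the promoters without a peak, that of Col2a1 thus belonged to the CpG-richer group and that of Col11a2 to the CpG-poorer one.

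By fold, the highest promoter peaks of Col1a1, Col3a1 and Col1a2 were at percentiles 14.3, 17.9 and 29.7 of those of other protein-coding genes. Col1a1 (ENSMUSG00000001506.10, chr11:94936224-94953042, forward strand), which encodes the more abundant chain of type I collagen, had its higher peak not over the principal start but in intron 1, at chr11:94936752-94937473. Another annotated start of Col1a1 lay 213 bp from it, closer than the principal one. The intron 1 peak reached a −log10 q of 25.0 at a fold of 5.83, with 59 fragments at the summit (95% Poisson interval 44.9 to 76.1, for counting error only, as all such intervals here). A smaller peak over the principal start itself, at chr11:94936155-94936287, was 133 bp wide with a fold of 3.16 and 31 fragments (21.1 to 44.0). The 2 intervals did not overlap, so the summit in intron 1 held more fragments than that at the principal start beyond counting error.

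At Col1a2 (ENSMUSG00000029661.16, chr6:4504814-4541544, forward strand), whose product pairs with that of Col1a1, a peak lay over the start of the principal coding transcript at chr6:4505267-4505855, with a fold of 7.79, a −log10 q of 30.7 and 56 fragments (42.3 to 72.7). The most upstream annotated start of Col1a2 was 453 bp away from this peak and lay outside any peak. Smaller promoter peaks followed in intron 1 (fold 4.19, 30 fragments) and in intron 36 (fold 5.48, 20 fragments). The former lay 84 bp from the start of another annotated gene, Gm43921, and may mark that gene. The latter was 749 bp from the start of a retained-intron transcript. At Col3a1 (ENSMUSG00000026043.18, chr1:45311538-45349706, forward strand) a single peak at chr1:45311197-45311730 covered the start, with a fold of 6.33, a −log10 q of 25.3 and 55 fragments (41.4 to 71.6). The highest promoter peaks of Col1a1, Col1a2 and Col3a1 thus had nearly equal fragment numbers, with a ratio of 1.07 between the highest and the lowest, and their intervals overlapped.

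The type V genes held both the highest and the lowest fold among the genes' highest promoter peaks. Col5a2 (ENSMUSG00000026042.16, chr1:45374321-45503282, reverse strand) had the highest promoter peak of the family at chr1:45502675-45503381, in exon 1, with a fold of 13.4, a −log10 q of 73.8 and 96 fragments (77.8 to 117.2). Its interval lay above those of all other promoter peaks of the family. A small second peak followed in intron 1, 0.8 kb from the start (fold 3.77, 26 fragments). Col5a3 (ENSMUSG00000004098.7, chr9:20770050-20815067, reverse strand) had 1 peak over its start at chr9:20814904-20815262, with a fold of 8.91, a −log10 q of 35.8 and 59 fragments (44.9 to 76.1). Col5a1 (ENSMUSG00000026837.15, chr2:27886425-28039514, forward strand), in contrast, combined the widest promoter peak of the family with the lowest fold of any gene's highest promoter peak. That peak, at chr2:27885584-27886645, was 1062 bp wide with a fold of 5.55, a −log10 q of 19.6 and 48 fragments (35.4 to 63.6).

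The remaining promoters belong to genes known mainly from cartilage. Col11a1 (ENSMUSG00000027966.20, chr3:114030540-114220718, forward strand) had a peak over its start at chr3:114030098-114030699, with a fold of 7.90, a −log10 q of 26.5 and 47 fragments (34.5 to 62.5). At Col27a1 (ENSMUSG00000045672.15, chr4:63214004-63334991, forward strand) a peak covered the start of the coding transcript at chr4:63215211-63215660, with a fold of 6.58, a −log10 q of 19.1 and 39 fragments (27.7 to 53.3), while the most upstream annotated start, 1207 bp from the nearest peak, was not covered. A second Col27a1 peak in intron 22 counted as a promoter peak because a transcript with a retained intron is annotated to start there (fold 6.38, 30 fragments). From the principal start of Col2a1 (ENSMUSG00000022483.17, chr15:97975602-98004695, reverse strand) the nearest peak was 9339 bp away. For Col11a2 (ENSMUSG00000024330.17, chr17:34039437-34066685, forward strand) this distance was 7046 bp. At Col11a2 that nearest peak lay at the start of another gene, Gm20427.

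Compared with promoter peaks elsewhere, those of the fibrillar collagens were low. Of the 8 genes with a promoter peak only Col5a2 exceeded the median of the 11715 other protein-coding genes with one, which was a fold of 9.86. By fold, Col5a2 was at percentile 82.9 of those genes and the remaining 7 were between percentile 12.3 (Col5a1) and 40.3 (Col5a3). Fragments at the summit gave the same count, with 1 gene above the median of 64. However, Col1a1 moved from percentile 14.3 by fold to 43.7 by fragments. The pileup expected around the peak, which with 1 added is the divisor of the fold, was 9.28 fragments at Col1a1, at percentile 89.9. It was 7.85 at Col3a1 and 7.83 at Col5a1, against a background of 2.81 for the whole library. Against other protein-coding genes with a CpG ratio under 0.5 alone, the median fold was 7.88 and the median fragment number 45. Of the 6 family members in this class with a promoter peak, 3 exceeded that fold and 6 that fragment number. The part of CpG content in the height of these peaks was not tested.

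**Figure D2:**
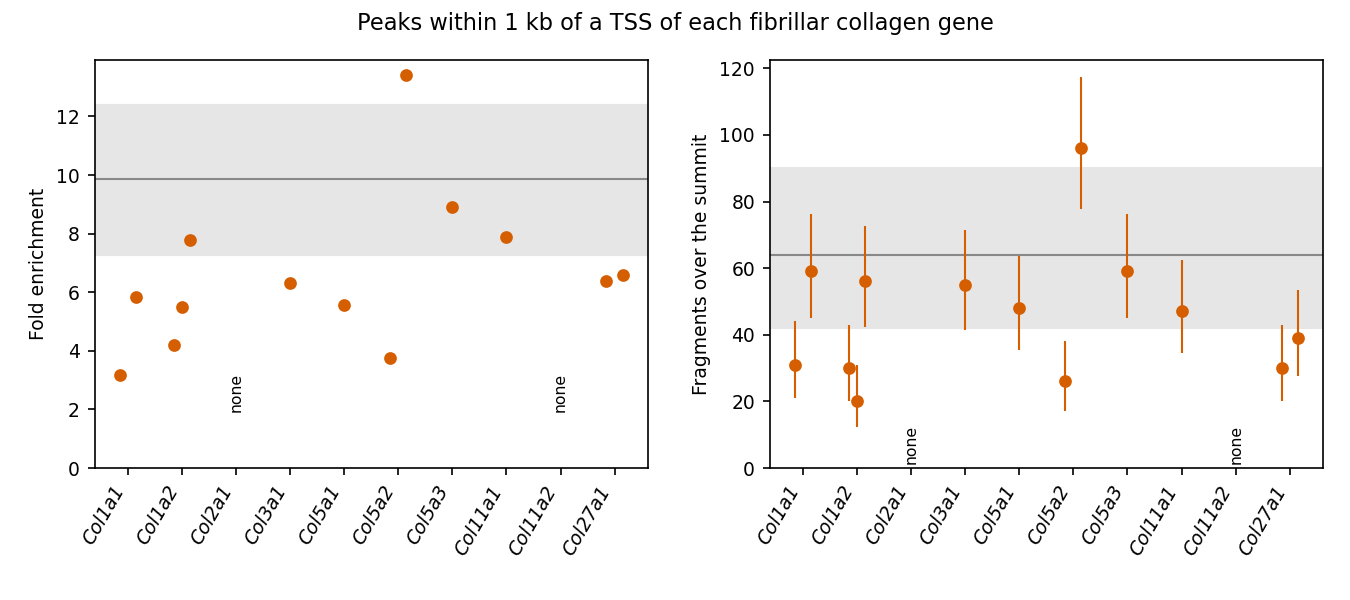
Fold enrichment (left) and fragments over the summit (right, with 95% Poisson intervals for counting error) of every promoter peak of each gene. The grey line and band are the median and quartiles of the highest promoter peak of 11715 other protein-coding genes. Only the higher Col5a2 peak, with a fold of 13.4 and 96 fragments, lies above both medians, and 2 genes have none.

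Gene bodies held peaks away from the gene's own TSSs at 8 of the 10 genes, and Col1a1 and Col11a2 had none. The share was 34.1% of all other protein-coding genes and 49.6% of the 14066 that are at least 10 kb long. The 10 genes are between 16.8 and 190.2 kb long. All 34 of these summits were in introns of the principal transcript and 16 were in intron 1. These shares were not computed for other genes or set against intron length, so they are not read as a trait of the family. Their median fold was 4.64, and that of the flank peaks 5.83. Col27a1 had the most, with 10 peaks spread from intron 2 to intron 50. The highest of them, at chr4:63323327-63323988 in intron 50, was the strongest peak of the family by fragments, with 139 at its summit, a fold of 15.8 and a −log10 q of 115. Another strong one lay 100.8 kb from the start in intron 41, with a fold of 11.4 and 100 fragments. Both were far higher than the promoter peak of the same gene, which had 39 fragments.

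In Col5a2, 5 of the 7 body peaks lay in intron 1, between 8.1 and 30.3 kb from the start. By fold the highest of these reached 10.8 (chr1:45479240-45479768, 40 fragments). By fragments it was the one 10.8 kb from the start (chr1:45492262-45492615, fold 9.80, 52 fragments). This peak lay 437 bp from a start of another gene, Gm38211, and may mark that gene. In Col3a1 intron 1 held 4 of the 5 body peaks, within 6.9 kb of the start, with folds from 3.52 to 7.48. The fifth, in intron 20 at chr1:45332268-45332917, had a fold of 9.66 and 43 fragments. Col5a1 had 5 weak to moderate peaks in introns 1 and 4, the highest with a fold of 6.09. Col11a1 showed only 2, in intron 1 within 2.0 kb of the start, and the rest of this 190.2 kb gene held no further peak. In Col2a1 the only body peaks were a pair in intron 16, with folds of 2.59 and 4.23. Intron 1 of Col2a1, which contains a well-known cartilage enhancer, held 0 peaks. Col5a3 had 2, in introns 1 and 8, with folds of 4.65 and 5.38, and Col1a2 had 1, in intron 1, with a fold of 5.58.

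Flank peaks were found at all 10 genes, and at 81% of other protein-coding genes, with 38 of the family's upstream and 29 downstream. Of these 67 peaks, 17 lay within 1 kb of a TSS of another gene and may mark that gene, so the flanks were read together with their neighbours. Col1a1 had the most flank peaks, 14, of which 6 were at the starts of other genes such as Sgca and Ppp1r9b. The highest of all, downstream at chr11:94957657-94958590 (fold 10.3, 85 fragments), was 188 bp from the start of the noncoding gene Gm24877. Away from any start, the highest by fold lay beyond the 3′ end, 42.8 kb from the start (fold 8.31, 51 fragments), and 19.5 kb upstream (chr11:94916581-94916832, fold 8.06, 58 fragments). At Col11a2, which lies among MHC genes, 5 of the 9 flank peaks were at the starts of neighbours such as Ring1 and H2-Ke6.

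Col1a2 has no protein-coding neighbour within 50 kb, and 0 of its 10 flank peaks were at the start of another gene. A group of 3 peaks lay between 15.4 and 17.0 kb upstream. The outermost, at chr6:4488182-4488829, had a fold of 10.5 and 84 fragments, the middle one a fold of 5.97 and 49 fragments, and the innermost, at chr6:4489960-4490371, a fold of 9.94 and 82 fragments. The outer and inner peaks had more fragments than the Col1a2 promoter peak with its 56, but their counting intervals (67.0 to 104.0 and 65.2 to 101.8) overlapped that of the promoter peak. A far-upstream enhancer active in fibroblasts has been described for this gene in mice, and its overlap with these peaks was not tested. The strongest peak of the whole family by fold lay 41.9 kb upstream of Col3a1 at chr1:45269373-45269888, with a fold of 18.5, a −log10 q of 92.3 and 100 fragments. The nearest TSS to it was that of Col3a1.

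Col3a1 and Col5a2 are neighbours on chromosome 1 that are transcribed towards each other, with 24.6 kb between their ends. The peak in this gap, at chr1:45355957-45356373, had a fold of 12.7 and 77 fragments and was counted in the flank of both. Col5a2 also had upstream peaks at 13.7 kb (fold 6.30) and 38.0 kb (fold 11.5). Near Col5a3, a peak downstream at chr9:20760762-20761277 had a fold of 14.3 and 112 fragments, and 2 more at 10.8 and 16.1 kb upstream had folds of 11.6 and 12.3. The summit at 10.8 kb lay in an exon of another gene. At Col2a1, a peak 9.8 kb upstream (chr15:98014034-98014645, fold 12.3, 95 fragments) was the nearest to its start, higher in fragments than all family promoter peaks but that of Col5a2 and at none of the annotated starts of a neighbour. Col5a1 had 4 upstream peaks, with folds from 4.14 to 9.95. Col11a1 had 1 flank peak, 199.2 kb from the start and beyond the 3′ end of the gene, with a fold of 16.5 and 62 fragments.

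Counted over each gene with its flanks, peak density ranged from 1.38 peaks per 100 kb for Col11a1 to 13.7 for Col1a1, with a median over the 10 genes of 7.33. The median over other protein-coding genes was 3.93, and 9 of the 10 genes were above it. Col1a1 was at percentile 98.8, Col1a2 at 94.0 and Col3a1 at 84.6, while Col11a1 was at 24.2. Peaks at neighbouring genes are included in these densities, and the part of neighbours in them was not tested.

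Among the 112 peaks, 81 lay more than 1 kb from the TSS of any gene (distal peaks). Their median fold was 5.56, almost the same as the 5.54 of the 47111 other distal peaks, and 41 of the 81 were above that value. Their fragment number was higher, with a median of 33 against 25, and so was the pileup expected around them, with 4.83 against 3.41. The expected pileup equalled the library background, to 3 decimals, at 9 of the 81 and at 31.6% of the others.

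AP-1, the dimer of FOS and JUN family proteins that responds to growth factors and stress, binds the sequence TGACTCA. This sequence, on either strand, was in the 101 bp around the summit of 17 of the 81 distal peaks, or 21.0% (95% Wilson interval 13.5 to 31.1%), and of 26.4% of the other distal peaks. The difference was within counting error. In windows 500 bp to the left and to the right of the 81 summits it occurred in 1 each, against 1.79% and 1.93% of such windows at other distal peaks. For comparison, TGTGGTT, bound by RUNX factors, was at 3 of the 81 summits (5.05% of other distal peaks) and CATTCC, bound by TEAD factors, at 12, or 14.8% with an interval of 8.68 to 24.1%, which includes the 9.51% of other distal peaks. The cAMP response element (CRE) was at 0 of the 81 and at 0.206% of the others. Over all positions, 22 of the 112 peaks held the AP-1 consensus, against 21.7% of all peaks in the list. Of the 13 promoter peaks 2 held it, in introns 36 of Col1a2 and 22 of Col27a1, against 8.15% of all peaks within 1 kb of a TSS.

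Distal peaks with the AP-1 consensus occurred at 9 of the 10 genes, Col2a1 being the exception. Of the other protein-coding genes 46.4% had such a peak in the gene or its flanks, and of the 11102 with at least 3 distal peaks, as all 10 collagen genes had, 75.2%. The collagen genes had from 3 (Col11a1) to 12 (Col27a1) distal peaks. Neither share is matched for this number, so 9 of 10 is not read as an excess. Col5a3 had the most, 4 of its 10 distal peaks, and Col5a2 had 3 of 10. Summit windows of 6 of the higher AP-1 peaks by fold are shown. The one upstream of Col5a3 with a fold of 11.6 was left out, as it lies in an exon of another gene. They are given on the forward strand of mm10, with TGACTCA or TGAGTCA in capitals.
Col11a1, chr3:114229653-114229753, forward strand: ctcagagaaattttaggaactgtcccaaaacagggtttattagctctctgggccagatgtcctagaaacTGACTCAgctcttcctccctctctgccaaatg
Col27a1, chr4:63323572-63323672, forward strand: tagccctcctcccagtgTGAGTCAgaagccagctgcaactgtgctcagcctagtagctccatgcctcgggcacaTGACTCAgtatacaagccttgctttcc
Col5a3, chr9:20760859-20760959, forward strand: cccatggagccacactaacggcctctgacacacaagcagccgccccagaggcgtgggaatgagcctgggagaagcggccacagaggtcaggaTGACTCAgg
Col3a1, chr1:45332506-45332606, forward strand: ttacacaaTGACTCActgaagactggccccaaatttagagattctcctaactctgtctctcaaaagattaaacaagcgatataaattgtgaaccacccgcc
Col3a1, chr1:45288056-45288156, forward strand: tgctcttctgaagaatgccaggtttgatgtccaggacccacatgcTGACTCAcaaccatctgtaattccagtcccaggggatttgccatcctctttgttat
Col5a1, chr2:27858682-27858782, forward strand: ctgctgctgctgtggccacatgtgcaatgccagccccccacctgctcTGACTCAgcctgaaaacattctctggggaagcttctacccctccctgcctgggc
The first is the summit downstream of Col11a1 (fold 16.5) and the second the intron 50 summit of Col27a1 (fold 15.8), which holds the consensus once on each strand. The third lies downstream of Col5a3 (fold 14.3). The fourth is in intron 20 of Col3a1 (fold 9.66) and also within 50 kb of the end of Col5a2, and the fifth 23.4 kb upstream of Col3a1 (fold 9.45). In the last, 27.7 kb upstream of Col5a1 (fold 8.97), the centre of the consensus coincided with the summit. In the 2 sequences of Col3a1 the consensus was at positions -39 and -2 relative to the summit.

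The remaining distal peaks with the consensus were mostly lower. Col1a1 had the upstream peak with a fold of 8.06 described above and another beyond the 3′ end, 46.9 kb from the start, with a fold of 5.83. Col1a2 had 1, 8.0 kb upstream (fold 4.73, 17 fragments), and Col11a2 had 1, 40.3 kb from its start on the downstream side (fold 7.89, 38 fragments). These 2 genes thus carried the consensus at a single distal peak each. For Col5a1 the other such peak lay 43.5 kb upstream, with a fold of 6.24. Col5a2 carried it in intron 1, 8.1 kb from the start (fold 4.28), and 13.7 kb upstream (fold 6.30). A higher Col5a2 peak in intron 1, 10.8 kb from the start, also held the consensus (fold 9.80, 52 fragments). That peak lay 437 bp from a start of another gene, Gm38211, and so was not counted as distal. At Col5a3 the consensus was found at 7.9 kb (fold 5.05) and 10.8 kb (fold 11.6) upstream and in intron 1 (fold 4.65), so that this gene had such peaks on both sides of its start. The lowest by fold was in intron 2 of Col27a1, with a fold of 3.62 and 20 fragments.

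The 17 distal peaks with the consensus had a median fold of 7.89 and ranged from 3.62 to 16.5. The 64 without it had a median of 4.89 and ranged from 2.30 to 18.5, so both sets covered nearly the same range. Among the other distal peaks, the medians were 6.31 with the consensus and 5.30 without. By fold, the highest distal peaks of Col1a1, Col1a2, Col2a1, Col3a1, Col5a1 and Col5a2 were without the consensus, whereas those of Col5a3, Col11a1, Col11a2 and Col27a1 carried it. By fragments, the highest distal peak of Col1a1 was the one with the consensus (58 against 51).

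**Figure D3:**
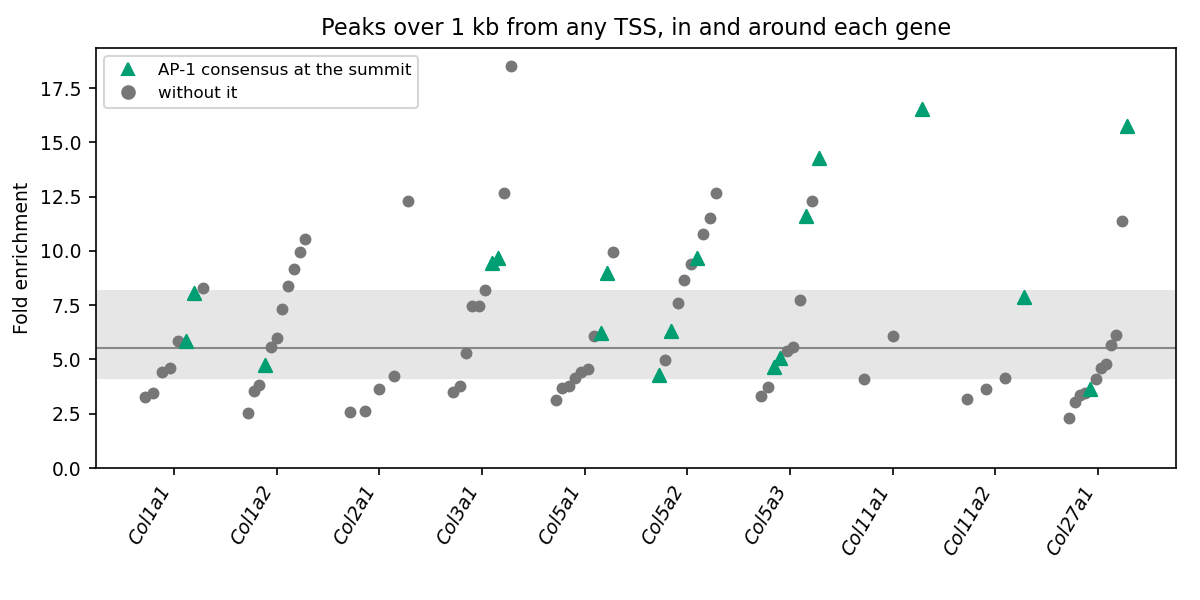
Fold enrichment of each peak more than 1 kb from any TSS, in or within 50 kb of each gene, sorted by height within a gene. Triangles carry the AP-1 consensus at the summit, and the grey line and band are the median (5.54) and quartiles of the 47111 other distal peaks. Peaks with and without the consensus cover nearly the same range, up to 16.5 and 18.5.

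Among the other collagen genes a promoter peak was found at 12 of 34, in 3 of 6 basement membrane genes, 3 of 6 beaded filament genes, 2 of 3 network genes and 1 of 9 FACIT genes, which encode collagens on the surface of fibrils. Of all protein-coding genes outside the fibrillar family described here, 53.7% had one. Of the transmembrane collagens 0 of 4 had one, and of the anchoring, multiplexin and remaining collagens 1 of 1, 1 of 2 and 1 of 2. Col24a1, a further fibrillar collagen, had no promoter peak but 11 peaks in its body. The highest promoter peaks of these genes were those of Col28a1 (fold 12.6), Col6a2 (10.7) and the peak between the divergent genes Col4a1 and Col4a2 (8.15), which counts for both of them. The median fold over the 12 was 6.50, against 7.18 over the 8 fibrillar genes. The difference in share between 8 of 10 and 12 of 34 was not tested, as the fibrillar genes were chosen with earlier results of these data known.

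**Figure D4:**
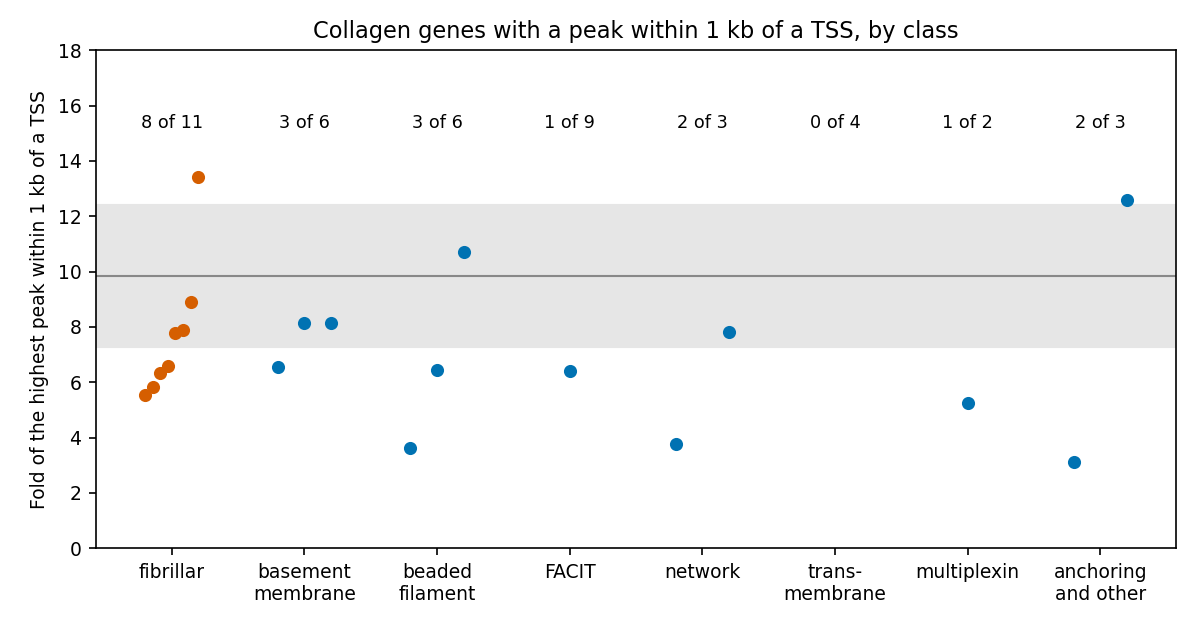
Fold enrichment of the highest promoter peak of each collagen gene by class, with the number of genes that have a promoter peak out of those in the class (fibrillar: the 10 genes and Col24a1). The grey line and band are the median (9.86) and quartiles of 11715 other protein-coding genes. FACIT genes (1 of 9) and transmembrane genes (0 of 4) have the fewest genes with a promoter peak among the classes of at least 3 genes.

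Among genes for making fibrils, a promoter peak was present at 10 of 11 genes listed with the collagen chaperone and the hydroxylases that modify the chains. Crtap was the exception. Crtap and Ppib are in this list but encode neither the chaperone nor a hydroxylase. A promoter peak was also present at 4 of 8 genes for procollagen proteinases and their enhancers and at 3 of 5 lysyl oxidase genes, which crosslink fibrils. Among all protein-coding genes outside the fibrillar family the share was 53.7%. The highest were at P4ha3 (fold 15.9), P4ha1 (12.8) and Ppib (11.1). Serpinh1, the collagen-specific chaperone, named here after its value was seen, had the lowest fold of the 17, at 4.36. Over all 17 with a promoter peak the median was 8.20.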

How the data were processed

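ATAC-seq paired-end reads were aligned by the authors to mm10 with STAR 2.5.3a, duplicates were removed with Picard, and peaks were called with MACS2 2.1.1.20160309 on whole fragments of 1 library, per the methods and the submitters' processing notes. Fragment ends were not described as shifted for Tn5. Each deposited peak has a summit position, a fold (a ratio), a score, and −log10 values of its p-value and q-value. The score, about 10 times the −log10 q, was not used. Per the methods, parental ATAC-seq peaks were called like the ChIP-seq peaks, from which blacklisted and input peaks were discarded. No such filter was added here. A fold over the local expectation understates a summit in broadly accessible surroundings, so fragments at the summit were also solved from fold and −log10 p. On all peaks, 99.997% came out within 0.02 of a whole number. The procedure, the distances and the sequence search were tested on simulated data.

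Peaks were assigned to genes of GENCODE M21 (GRCm38, the same build) by any base within 1 kb of a start of any transcript of the gene, otherwise in the gene body, otherwise within 50 kb. The principal transcript was the coding one with the most coding bases. Sequences come from RefSeq GRCm38.p6. The CpG ratio used 500 bp to either side of the start. Percentiles give the share of other protein-coding genes with a lower value. Named were all 10 genes, all promoter peaks, each gene's highest other peak, its distal AP-1 peaks where at most 5 (otherwise the highest) and the 3 highest promoter peaks of the collagen and biosynthesis lists. The genes and lists were chosen with earlier results of these data known. No test was made, as there is 1 library. Alternatives were other thresholds, distances, windows and measures. Software was pysam 0.24.0, matplotlib 3.10.9, SciPy 1.17.1, pandas 2.3.3 and NumPy 2.4.6 under Python 3.11.15.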

Additional observations from a re-analysis of the deposited data

How the results depend on the processing

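No paired analysis was possible because a single library entered. Of 29 alternative values, 22 stayed within their limits (a factor of 1.5 for counts, the 95% Wilson interval for the AP-1 share) and 7 moved, with 0 changes of direction. The number of genes with a promoter peak stayed at 8 under 8 of its 9 alternatives and was 7 when only the most upstream start of each gene counted. Keeping only peaks with a fold of at least 5 left 14 gene-body peaks and 41 flank peaks, and flanks of 20 and 100 kb held 33 and 140 peaks, as follows from fewer peaks and other widths. The AP-1 share of distal peaks was 7.41% in windows of 51 bp (13.5% of other distal peaks) and 32.1% in whole peaks (40.8%), and under all 7 alternatives it was below that of other distal peaks. Among coding genes with a CpG ratio under 0.5 alone, an alternative chosen after seeing the data, 3 promoter peaks were above the median fold. By fragments, all 6 members of this class with a promoter peak were above the class median of 45. That comparison was not among the 29 alternatives, so the 0 changes of direction do not cover it. No summit in the list had fewer than 10 fragments. Where the local expectation is higher a site needs more fragments to be called, so weaker sites are outside what this list can show. Without a second library the heights have counting error only.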
